A study of Xenopus laevis with 46 samples.

Results

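Embryos of the frog Xenopus laevis that had been injected with mRNA of cerberus (Cer) were compared with control embryos of the same batch at stage 9, the late blastula. The members are set by their labels: 3 Cer libraries and the 3 control libraries that share their batch, 6 of the 46 libraries of the series and 6 of its 17 at stage 9. The comparison was chosen with earlier results of these data known. Each library is polyA-selected RNA of whole embryos of the Nasco strain. The Cer embryos received mRNA called xCer L in the labels at the 2- to 4-cell stage, at a dose not given there, and the controls are labelled only as whole embryos, with no injection named. Cer 1, 2 and 3 belong to the batches of control 1, 2 and 3, called batches 1 to 3 here, and each of these batches also holds a library of embryos injected with xWnt8 mRNA (Wnt8). A β-catenin knockdown by morpholino (bCatMO, 2 libraries, with controls 4 and 5 of their own batches) and Cer embryos at stage 10.5, the early gastrula (3 libraries, with controls 4, 5 and 6 of that stage), serve below for direct comparisons. The labels do not tie the replicates to different females or clutches. The p-values below set a difference against the spread among the libraries fitted, and part of that spread may be technical. They therefore do not extend to other females or clutches.

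Cerberus is a secreted protein of the anterior endoderm that binds Nodal, BMP and Wnt ligands outside the cell and keeps them from their receptors. In the late blastula, maternal VegT and β-catenin switch on nodal genes in vegetal cells. Nodal proteins then signal through activin-type receptors, Smad2 and Foxh1 to switch on mesoderm and endoderm genes, more nodal, and lefty, a secreted Nodal inhibitor that closes a feedback loop. BMP signals act through Smad1 on ventral genes such as the ventx homeobox genes, and β-catenin acts on the dorsal side on siamois, twin and nodal3, ahead of the Spemann organizer, the dorsal signalling centre of the gastrula.

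The injected mRNA was read on the cer1.S row, which was set aside from all tests. It stood at 5348, 4874 and 6622 RPKM (reads per kilobase of transcript and per total reads, scaled by the authors) in Cer 1, 2 and 3, and at 8.6, 3.86 and 10.6 RPKM in controls 1, 2 and 3. All 3 Cer libraries lie far above all 3 controls, by 622-, 1264- and 626-fold within the batches, and cer1.S took 0.82%, 0.748% and 1.02% of the reads in genes. The homeolog cer1.L, the copy on the other subgenome, was at 0, 0.0121 and 0 RPKM in the Cer libraries. In the controls cer1.L was at 0.21, 0.0268 and 0.258 RPKM, and the row was too low for the filter. The injected sequence was thus counted on cer1.S. The labels call the mRNA xCer L without saying what L stands for. Reads in genes ranged from 37.7 M to 58.5 M over the 6 libraries, and markers of animal, vegetal and marginal cells were all detected, from epcam.S at a mean of 510 RPKM in controls to mixer.S at 28.5 RPKM.

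At stage 9 the Cer embryos held less RNA of some mesoderm and endoderm genes, of the Nodal pathway genes lefty and nodal1 and of some ventral genes, and more RNA of a few neural plate genes and nodal5 copies. By list, 10 of 21 tested endoderm rows, 9 of 36 mesoderm rows and 8 of 45 ventral rows fell, and 4 of 42 neural plate rows rose, while the other members of these lists were not called. The lists were chosen with earlier results of these data known, so their counts are no independent evidence. Of 17810 rows with at least 1 RPKM in 2 or more of the 6 libraries, 73 (0.41%) were called, that is, passed an adjusted p of 0.05 in limma's moderated test with batch as a term. Among them 39 (0.219% of the rows tested) were lower and 34 (0.191%) higher, and 32 of the lower and 15 of the higher ones changed by 2-fold or more. An unadjusted p below 0.05 was found for 883 rows (4.96%), and the median log2 fold change over all rows was -0.01. Here and below a fold change is the difference in log2(RPKM + 0.5), which understates changes of low genes, with the standard error (SE) of the fit. In whole embryos, fewer cells of a type and less RNA per cell cannot be told apart.

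**Figure D1:**
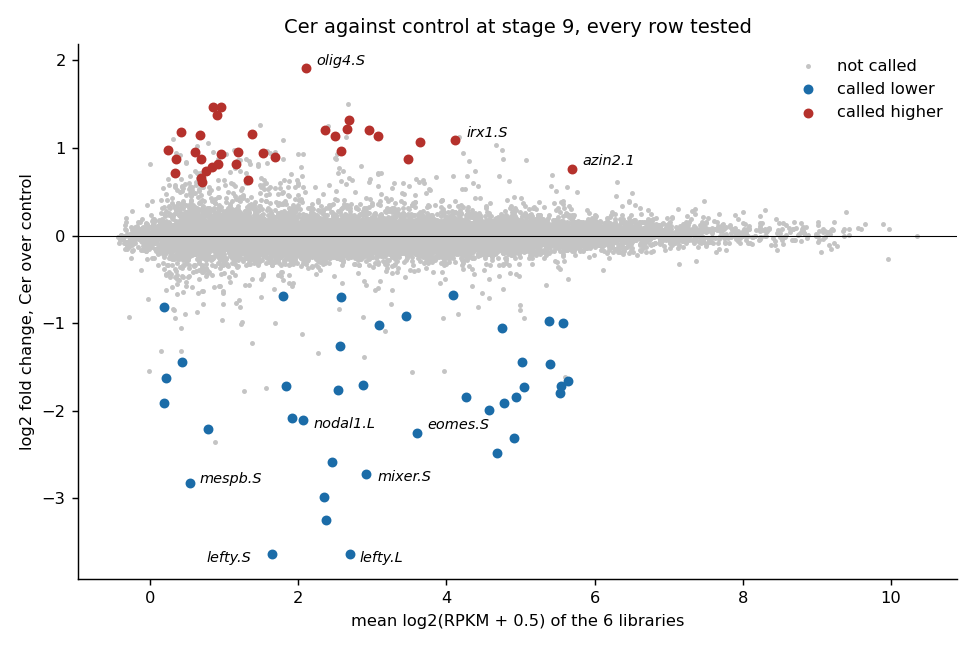
Each point is 1 of the 17810 rows tested, with its mean log2(RPKM + 0.5) over the 6 stage 9 libraries on the x axis and its log2 fold change, Cer over control, on the y axis. Blue points are the 39 rows called lower and red points the 34 called higher. The lower ones reach -3.64 (lefty.L and lefty.S) and the higher ones 1.91 (olig4.S).

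The called rows that fell were mostly genes of moderate level, with a median control mean of 19 RPKM and a median Cer mean of 4.27 RPKM. Those that rose were mostly scarce, with medians of 1.17 RPKM in controls and 2.88 RPKM in Cer. Of these 34 rows, 17 had a mean under 3 RPKM in Cer. All 73 moved in the same direction in the 3 batches, against 18.3% (lower) and 13.8% (higher) of all rows. In 27 of the lower and 24 of the higher ones the Cer and control libraries did not overlap at all, against 1.57% and 1.16% of all rows. The calls were made on these same libraries with batch as a term. Both counts therefore follow in part from the selection and are no separate evidence.

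Control 2 stood apart from controls 1 and 3. It was the lowest of the 3 controls for 38 of the 39 lower rows, against 31.3% of all rows, and for 26 of the 34 higher rows. The median of the 39 lower rows was 23.8, 7.16 and 26.8 RPKM in controls 1, 2 and 3, and their median log2 change was -2.65, -0.99 and -1.87 in batches 1, 2 and 3. For the higher rows those medians were 0.89, 0.95 and 1.04. On most of the 39 lower rows the Wnt8 library of batch 2 was likewise the lowest of the 3 Wnt8 libraries. In Wnt8 1, 2 and 3, mixer.S was at 28.3, 5.8 and 44.4 RPKM and eomes.S at 50.7, 16.8 and 75.1 RPKM. bambi.L was close to level there, at 30.4, 29.6 and 31.1 RPKM. What made control 2 low, and whether it is a trait of the library or of its batch, was not tested. Without batch 2, 82 rows were called, 48 of them among the 73 (an alternative chosen after seeing the data).

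The count of calls rests on the batch term and on single libraries. With no batch term 7 rows were called, and with the 6 libraries fitted alone 11. The count was 9 without Cer 3, 9 without control 3, 20 without control 1 and 32 without Cer 1. Without Cer 2 more rows were called than in the full fit, as given below. Of the 73, 55 stayed called without Cer 2 and 45 without control 2. All 73 rows kept their sign when any of the 6 libraries was left out, and 7 of them stayed called each time: olig4.S, lefty.L, lefty.S, the MIXL1 match Xelaev18026293m, the TSC22D3 match Xelaev18038497m, and Xelaev18003950m and Xelaev18003951m, which have no gene name. The kept sign follows in part from the selection, because all 73 already moved the same way in each batch. Voom on reads recovered from the RPKM values called 127 rows, among them 71 of the 73.

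On the log2(RPKM + 0.5) scale the Nodal antagonist lefty had the largest fall of the genes tested. That ranking depends on the added 0.5 RPKM. By voom the scarcer mespb.S changed by -5.98, beside -4.25 for lefty.L and -4.81 for lefty.S. lefty.L was at 32.6, 7.9 and 43.3 RPKM in controls 1, 2 and 3 and at 0.738, 1.49 and 2.03 RPKM in Cer 1, 2 and 3, a log2 change of -3.64 (SE 0.37, adjusted p = 0.0024 by limma), or 12.5-fold lower. The second homeolog, lefty.S, went from 12.7, 5.03 and 17.9 RPKM to 0.454, 0.466 and 0.256 RPKM, also -3.64 (SE 0.32, adjusted p = 0.0024). For both rows every Cer library lay below every control.

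The nodal ligand genes did not move as a group. nodal1.L, a vegetally expressed Nodal ligand, was at 12, 2.75 and 15.5 RPKM in the controls and at 1.49, 0.888 and 2.42 RPKM in Cer, a log2 change of -2.11 (SE 0.24, adjusted p = 0.0047). nodal2.L, a close relative, went from 7.7, 1.48 and 16 RPKM to 1.27, 0.574 and 3.45 RPKM, a change of -1.72 (SE 0.26, adjusted p = 0.018). The nodal1.L groups were separate, while nodal2.L in Cer 3 stood above control 2. Their homeologs were scarcer: nodal1.S, under the filter, was at 0.595, 0.173 and 1.18 RPKM in controls and at 0.0143, 0.0157 and 0.0535 RPKM in Cer, and nodal2.S had a log2 change of -0.67 (adjusted p = 0.54). The rows named nodal had changes of -0.84 (nodal.L, adjusted p = 0.30) and -0.25 (nodal.S, adjusted p = 1).

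nodal5, whose early vegetal expression depends on VegT and β-catenin, went the other way. Row Xelaev18018805m was at 4.31, 3.59 and 6.19 RPKM in controls and at 10.9, 8.55 and 14.9 RPKM in Cer, a change of 1.20 (SE 0.18, adjusted p = 0.018), with no overlap. Row Xelaev18018806m rose by 0.97 (adjusted p = 0.038) and row Xelaev18018801m, at no more than 3.27 RPKM, by 1.15 (adjusted p = 0.037). All 9 tested rows of nodal5 and nodal6 had positive changes, from 0.26 (nodal6.L) to 1.20, and 8 were higher in each of the 3 batches, but 3 passed the test. Copies of nodal5 are near-identical and can share reads, which was not examined here. The rows may then not be independent, and the change is less certain for a single copy than for the family.

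Of the 21 tested rows on the list of Nodal ligands and feedback genes, 4 fell, 3 rose and 14 did not pass, with a median of 0.22. The same list had 2 members called without Cer 3, 2 without control 3, 3 without Cer 1 and 3 without control 1. It had 5 without control 2 and 8 without Cer 2. Among 48 tested rows of receptors, Smads, Foxh1 and other TGF-beta transduction genes, none was called by limma (0 of 48, with 6 at an unadjusted p below 0.05 and 0 called by voom), with changes between -0.45 (smad7-like.S) and 0.22 and a median of -0.08. foxh1.L, the DNA-binding partner of Smad2, had means of 116 and 101 RPKM in control and Cer (log2 change -0.19, adjusted p = 1).

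**Figure D2:**
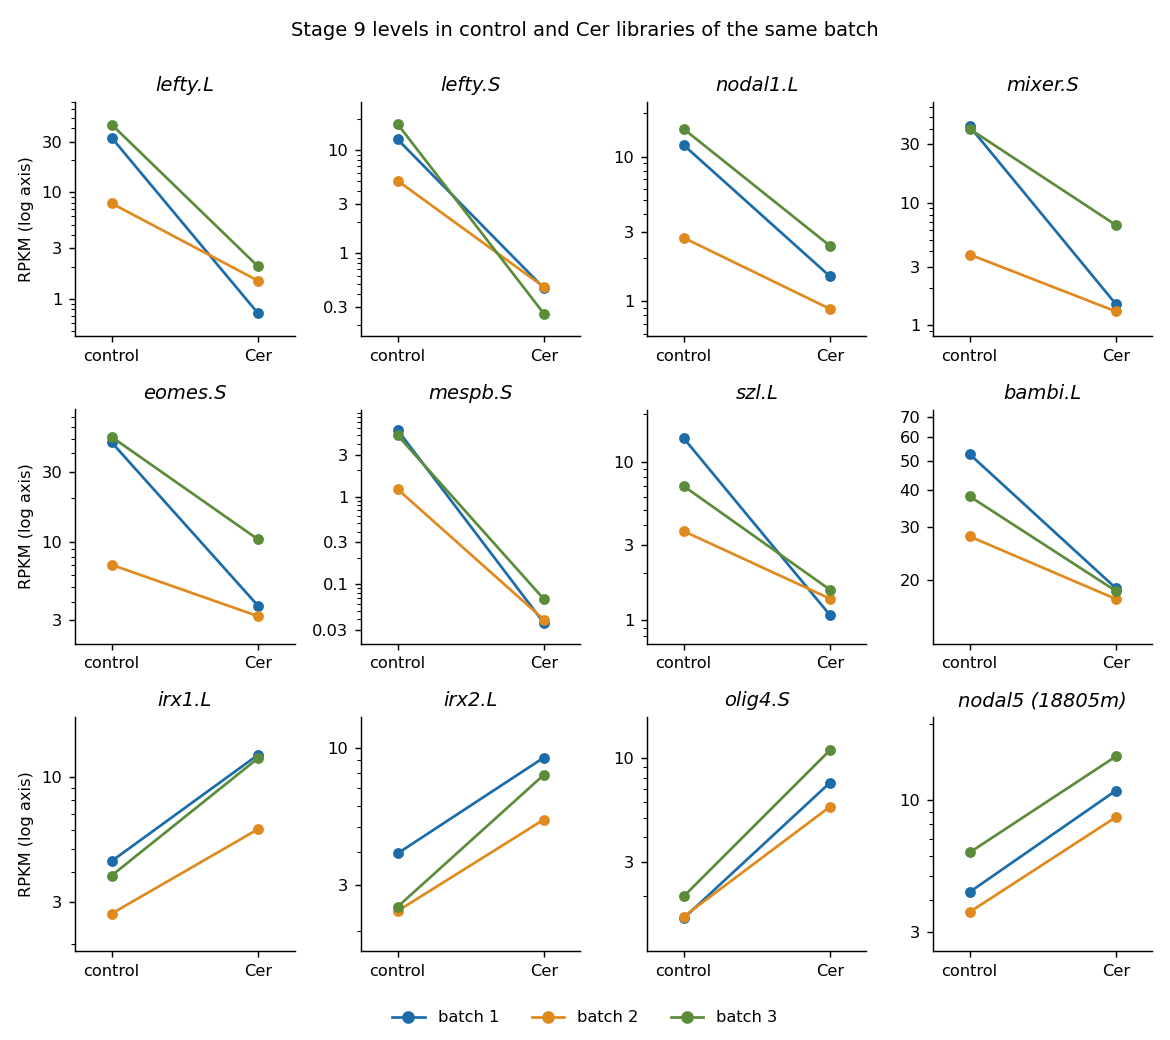
RPKM on a log axis for 12 rows called at stage 9, in the control and the Cer library of each batch, joined by a line for batch 1 (blue), 2 (orange) and 3 (green). The first 8 rows go down in every batch and the last 4 go up in every batch. For mixer.S control 2 starts at 3.78 RPKM against 41.8 and 39.9 RPKM in controls 1 and 3.

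Among the gene lists, the endoderm list held the most lower rows. Of 21 tested rows on that list, 10 fell and 0 rose, with a median of -0.71 beside -0.01 over all rows. All of the 10 except sox17a.S were mixer, MIXL1-matched or mix1 rows. The count thus rests largely on a single homeobox family. mixer, a homeobox gene of endoderm specification, was at 41.8, 3.78 and 39.9 RPKM in controls and at 1.49, 1.3 and 6.57 RPKM in Cer on its .S row, a log2 change of -2.72 (SE 0.43, adjusted p = 0.022). mixer.L changed by -2.59 (adjusted p = 0.027). For both homeologs Cer 3 lay above control 2, while within each batch Cer was lower.

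There were 5 further rows that have human MIXL1 as best match in the authors' table, and all 5 fell, with log2 changes of -1.71 to -2.48. The steepest, Xelaev18026293m, went from 103, 20.1 and 105 RPKM to 10.3, 6.53 and 16.3 RPKM (SE 0.25, adjusted p = 0.0024), with all Cer libraries below all controls. The mix1 rows, another Mix-family homeobox gene, fell, with log2 changes of -1.84 (mix1.L, adjusted p = 0.009) and -1.44 (mix1.S, adjusted p = 0.009).

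sox17a, an HMG-box gene that carries the endoderm programme forward, was called on 1 of its 2 rows. sox17a.S was at 22.7, 12 and 34.2 RPKM in controls and at 11.5, 7.52 and 24.8 RPKM in Cer, a change of -0.68 (SE 0.09, adjusted p = 0.0089). sox17a.L, from 36.6, 14.2 and 50.6 RPKM to 16.5, 10.9 and 32.9 RPKM, had a change of -0.71 that missed the threshold (adjusted p = 0.089). In both rows the groups overlapped and each Cer library was below its own control. Endoderm rows that did not pass include sox7.L at -0.07 and a GATA5 match, Xelaev18046225m, at -0.03 (adjusted p = 1 for both). The list had 2 called members without Cer 3, 2 without control 3, 2 without control 1 and 6 without Cer 1. It had 10 without control 2 and 11 without Cer 2.

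Mesoderm genes showed 9 lower and 0 higher rows of 36 tested, with a median of -0.25. The mix1 rows count here as well as in the endoderm list, and the fgf8 rows also in the FGF list. The mesp genes, basic helix-loop-helix factors of early mesoderm, fell on all 4 rows. mespb.S went from 5.71, 1.21 and 4.98 RPKM to 0.0363, 0.0397 and 0.0679 RPKM, a change of -2.82 (SE 0.36, adjusted p = 0.0079), and mespb.L, mespa.S and mespa.L fell, with log2 changes of -1.91, -2.21 and -1.44. eomes, the T-box gene that heads mesoderm induction, fell on eomes.S from 47.2, 7.07 and 51.3 RPKM to 3.75, 3.19 and 10.5 RPKM (log2 change -2.25, SE 0.38, adjusted p = 0.03). On eomes.L it went from 48.6, 7.06 and 51.5 RPKM to 8.21, 5.45 and 14.3 RPKM, a change of -1.55 that was not called (adjusted p = 0.14). The eomes groups overlapped only through control 2, which stood below Cer 3 on both rows and below Cer 1 on eomes.L.

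The growth factor gene fgf8 fell about 2-fold, from 16.3, 6.45 and 14.5 RPKM to 5.99, 3.42 and 7.84 RPKM on fgf8.L (log2 change -1.02, SE 0.14, adjusted p = 0.01) and with a change of -0.92 on fgf8.S (adjusted p = 0.047). For brachyury (t), the pan-mesodermal T-box gene, t.S was at 6.96, 0.78 and 8.26 RPKM in controls and at 1.78, 1.22 and 4.47 RPKM in Cer, lower in batches 1 and 3 and higher in batch 2 (log2 change -0.70, adjusted p = 1). The ligand gene wnt8a had changes of -0.21 (wnt8a.L) and -0.54 (wnt8a.S), with adjusted p = 1 for both. Rows that match human TBX6, among the most abundant on the list, were at control means of 183 and 216 RPKM for Xelaev18010507m and Xelaev18007613m and had changes of -0.29 (adjusted p = 0.70) and -0.15 (adjusted p = 1). Without control 3 the mesoderm list had 0 called members, without Cer 3 it had 1, without control 1 it had 2, and without Cer 1 it had 4. Without control 2 it had 10, and without Cer 2 it had 12.

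Ventral genes of the BMP group showed 8 lower and 0 higher of 45 tested rows and a median of -0.19. The 4 rows that match human VENTX, homeobox repressors of dorsal fate, all fell, with log2 changes of -1.47 to -1.80. Xelaev18036903m was at 103, 66.2 and 98.8 RPKM in controls and at 17.8, 32.2 and 36.3 RPKM in Cer, a change of -1.66 (SE 0.25, adjusted p = 0.018). sizzled (szl), a secreted feedback inhibitor of the chordin-cleaving proteases, went from 14.1, 3.65 and 7.03 RPKM to 1.08, 1.37 and 1.56 RPKM on szl.L (log2 change -2.08, SE 0.36, adjusted p = 0.031) and had a change of -1.76 on szl.S (adjusted p = 0.04). In all 4 VENTX rows and both szl rows the Cer libraries lay below every control.

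bambi, a pseudoreceptor that dampens BMP signals, was called on 1 of its 2 homeologs. bambi.L was at 52.7, 28 and 38.1 RPKM in controls and at 18.8, 17.3 and 18.4 RPKM in Cer, a change of -1.06 (SE 0.17, adjusted p = 0.027). bambi.S went from 27.8, 27 and 36.3 RPKM to 18.8, 20.7 and 26.5 RPKM, a change of -0.46 that was not called (adjusted p = 0.43), and the difference between homeologs was not tested. An ID3 match, Xelaev18012086m, an inhibitor of helix-loop-helix factors and a direct BMP target, fell, with a log2 change of -1.73 (adjusted p = 0.029). The BMP ligand genes bmp4.L and bmp4.S had log2 changes of 0.18 and 0.17, and bmp2.L and bmp2.S of -0.09 and -0.14 (adjusted p = 1 for each). The ventral list had 0 called members without Cer 3, 0 without control 3, 0 without control 1, 4 without control 2 and 5 without Cer 1. It had 10 without Cer 2.

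Organizer genes were mostly not called. Of 50 tested organizer rows, 2 fell and 0 rose, with a median of -0.03. The 2 were both rows of not, a homeobox gene of the future notochord: not.L went from 58.1, 39.3 and 85.4 RPKM to 30.1, 25.6 and 31.9 RPKM (log2 change -0.98, SE 0.14, adjusted p = 0.01) and not.S from 73.4, 42.9 and 94.7 RPKM to 37, 25.2 and 39.2 RPKM (adjusted p = 0.019). Each Cer library lay below each control in both rows.

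The early β-catenin targets outside nodal5 were not called. Of 17 tested rows on the list of early β-catenin targets, 3 rose (the nodal5 rows above) and 0 fell, with a median of 0.26. The siamois (sia1) and twin (sia2) homeobox genes of the early dorsal side had changes from -0.33 to 0.14 on 5 rows. On sia2 row Xelaev18019205m the RPKM were 9.67, 11.5 and 12 in controls and 9.93, 14.1 and 8.88 in Cer, a change of -0.03 with a 95% confidence interval of -0.34 to 0.27. The nodal3 rows, which encode a divergent ligand of the early organizer, had changes of 0.21 to 0.22, and Xelaev18018867m was at 30.9, 31 and 32.3 RPKM in controls and at 38.8, 41.2 and 31 RPKM in Cer, with an interval of -0.30 to 0.75. Without Cer 1, Cer 3, control 1 or control 3 the list had 0 called members, and without control 2 it had 1. Without Cer 2 it had 4.

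chordin, the secreted BMP antagonist of the organizer, was higher in Cer in each batch but was not called. Row Xelaev18027420m was at 27.9, 8.78 and 26.2 RPKM in controls and at 55, 18.1 and 51.4 RPKM in Cer, a log2 change of 0.98 (interval 0.34 to 1.61, adjusted p = 0.43). The other rows that match CHRD had changes of 1.12 (Xelaev18027421m, adjusted p = 0.30) and 0.49 (Xelaev18029538m, adjusted p = 1). goosecoid (gsc), an organizer homeobox gene, leaned down in batches 1 and 3 and up in batch 2: gsc.L was at 21, 2.7 and 28 RPKM in controls and at 8.24, 4.21 and 8.87 RPKM in Cer (log2 change -0.78, interval -1.64 to 0.08, adjusted p = 1). gsc.S had a change of -0.31 (adjusted p = 1). Large changes that missed the threshold were an OTX2 match, Xelaev18039840m, from 6.94, 0.571 and 8.52 RPKM to 0.303, 0.131 and 0.54 RPKM (log2 change -2.36, adjusted p = 0.085), and foxa4.S at -1.56 (adjusted p = 0.095), while foxa4.L was at -0.31.

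**Figure D3:**
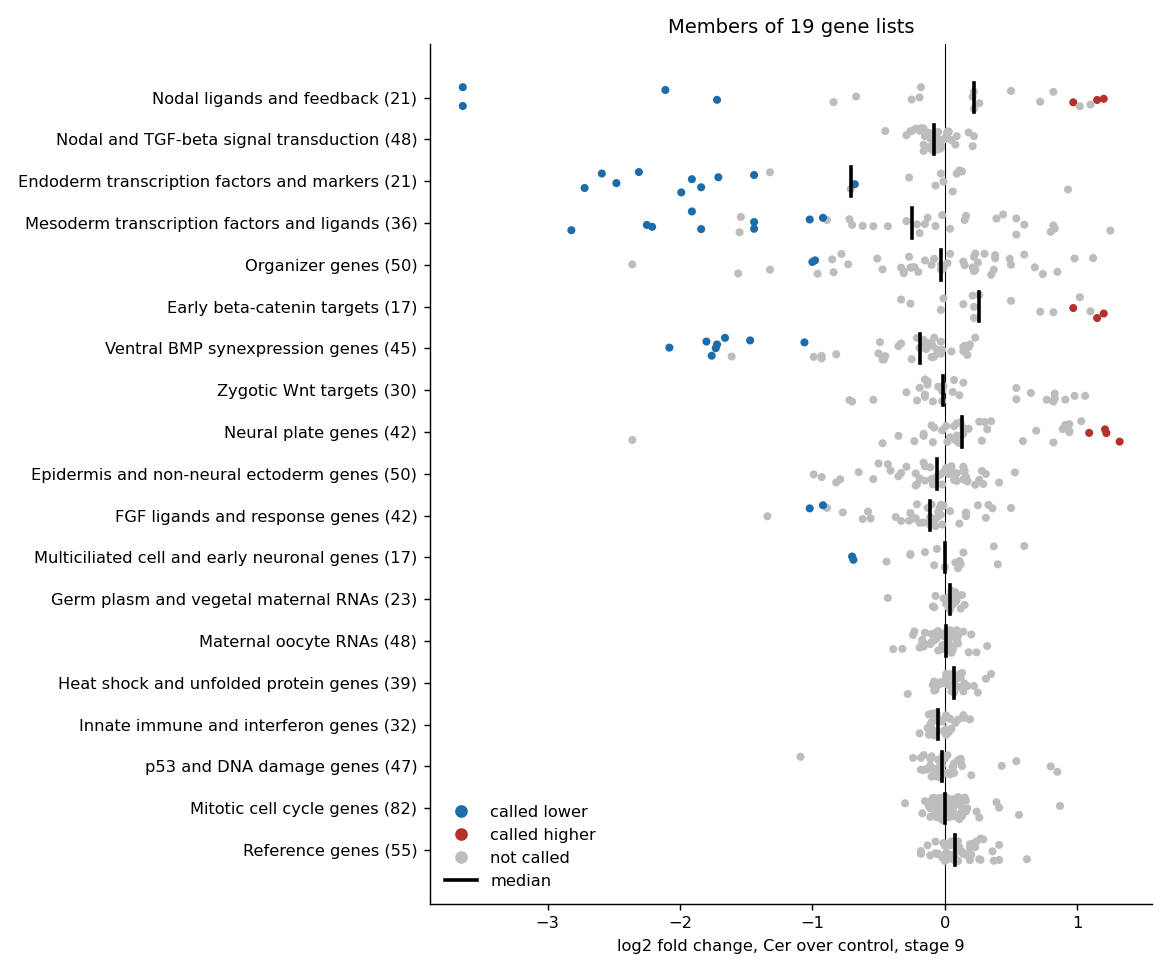
Log2 fold change, Cer over control at stage 9, of the tested rows of 19 gene lists, 1 point a row, with the number of tested rows in parentheses and the list's median as a black bar. Blue points were called lower and red points higher. Lower calls lie in the Nodal feedback, endoderm, mesoderm, organizer, ventral, FGF and multiciliated or neuronal lists, and higher calls in the Nodal feedback, early β-catenin and neural plate lists.

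Neural plate genes gave 4 of the 7 listed rows that rose. Of 42 tested rows, 4 rose and 0 fell, with a median of 0.13. A positive change was found for 32 of the 42, against 8016 of all 17810 rows. The reference list had 42 of 55, so such a lean was not particular to neural plate genes. The iroquois genes, homeobox factors of the neural plate, gave 3 of the 4: irx1.L went from 4.45, 2.68 and 3.87 RPKM to 12.4, 6.05 and 12 RPKM (log2 change 1.32, SE 0.17, adjusted p = 0.008), irx1.S rose by 1.09 (adjusted p = 0.0084) and irx2.L by 1.21 (adjusted p = 0.0061). In irx1.L and irx2.L every Cer library lay above every control.

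Several other members of the list had positive changes without passing. zic1.S had a change of 0.69 (adjusted p = 0.085), zic1.L 0.94 (adjusted p = 0.096), zic4.L 0.94 (adjusted p = 0.066) and irx2.S 0.89 (adjusted p = 0.067). A negative change was found for 10 members. The largest change on the list was among them, -2.36 for the OTX2 match Xelaev18039840m given above, which also missed the threshold (adjusted p = 0.085). The general neural and animal genes of the SoxB1 group, matching SOX3 at control means of 283 and 471 RPKM, had changes of -0.09 and 0.01. Without Cer 3 or control 3 the neural list had 0 called members, and without Cer 1 it had 2. Without control 1 or control 2 it had 4, and without Cer 2 it had 9.

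The gene with the largest rise was olig4.S, a basic helix-loop-helix factor, from 1.55, 1.58 and 2 RPKM to 7.53, 5.69 and 11 RPKM, a change of 1.91 (SE 0.20, adjusted p = 0.0024), and it was called under all 17 alternatives tried. foxb1.S, a forkhead gene, went from 0.529, 0.502 and 1.02 RPKM to 3.78, 1.17 and 4.12 RPKM (log2 change 1.47, adjusted p = 0.04). The MEIS2 match Xelaev18039368m, a homeobox cofactor, rose by 1.47 (adjusted p = 0.014), and apold1.L by 1.38 (adjusted p = 0.027). A TSC22D3 match, Xelaev18038497m, rose by 1.14 (adjusted p = 0.0038), and the lysophosphatidic acid receptor gene lpar6.S by 1.07 (adjusted p = 0.042). The most abundant called row that rose was azin2.1, which matches human ODC1, from 44.5, 35.5 and 37.8 RPKM to 71.6, 56.9 and 71.9 RPKM (log2 change 0.76, adjusted p = 0.0084).

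Other lists held few or no calls. Of 42 tested rows of FGF ligands and response genes 2 fell, both fgf8, and of 17 multiciliated and early neuronal rows 2 fell, the Notch ligand gene dll1 on both homeologs (-0.69 and -0.70, adjusted p = 0.025 and 0.037). None of 50 epidermal, 30 zygotic Wnt target, 23 germ plasm, 48 maternal oocyte, 39 heat shock and unfolded protein, 32 innate immune, 47 p53, 82 mitotic and 55 reference rows was called by limma, with list medians between -0.06 and 0.08. In these 9 lists 49 rows had an unadjusted p below 0.05, among them 13 epidermal, 11 zygotic Wnt target and 10 reference rows, and voom called 3, of which 2 were epidermal and 1 a zygotic Wnt target. Of the 55 reference rows, which stand for genes of general cell function, 42 had a positive change, 21 of them in all 3 batches, with a median of 0.08. Over all 17810 rows 8016 had a positive change, and 2462 were higher in all 3 batches. Across the 682 tested rows on any list 33 fell and 7 rose.

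A direct contrast with Wnt8 mRNA, injected in embryos of the same batches, asked which of these changes differ between the mRNAs. It called 83 of 17810 rows (0.466%), 65 lower in Cer and 18 higher. Of the 39 rows lower in Cer than in control, 34 were also lower in Cer than in Wnt8 (0.365% of all rows were), and of the 34 higher ones 11 were higher in Cer than in Wnt8 (0.101% of all rows). Among those 34, 3 were also called higher in Wnt8 than in control, and their median Wnt8 change was 0.48. azin2.1, at 60, 69.4 and 70.7 RPKM in Wnt8, was one of the 3, with a Wnt8 change of 0.76 (adjusted p = 0.019) equal to that of Cer. With no batch term the contrast called 8 rows. Each comparison uses the same Cer libraries, so part of the excess over all rows follows from the selection.

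lefty.S, at 11.9, 9.65 and 18.9 RPKM in Wnt8 1, 2 and 3, was lower in Cer than in Wnt8 (log2 difference -3.92, adjusted p = 0.0007). nodal1.L (-2.47, adjusted p = 0.001), eomes.S (-2.87, adjusted p = 0.0066), mixer.S (-2.78, adjusted p = 0.016), szl.L (-2.47, adjusted p = 0.0099) and VENTX match Xelaev18036903m (-1.45, adjusted p = 0.031) differed in the same direction. bambi.L did not (-0.73, adjusted p = 0.18), with 30.4, 29.6 and 31.1 RPKM in Wnt8. irx1.L was higher in Cer than in Wnt8 by 0.93 (adjusted p = 0.037, or 0.061 with log2(RPKM + 0.1)), whereas irx2.L was at 4.48, 4.63 and 4.27 RPKM in Wnt8 and did not pass (0.65, adjusted p = 0.13).

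The siamois, twin and nodal3 rows, which were not called in Cer against control, differed between the mRNAs. In Wnt8 against control 4 of the 5 siamois and twin rows and 2 of the 3 nodal3 rows rose (17 rows, 0.0955%, rose and 1, 0.00561%, fell over all rows). All 5 siamois and twin rows were lower in Cer than in Wnt8, sia2 row Xelaev18019205m by -1.13 (adjusted p = 0.0036), with 17.4, 31.1 and 26 RPKM in Wnt8, and so were 2 of 3 nodal3 rows, Xelaev18018867m by -1.38 (adjusted p = 0.031). The chordin rows had differences of -0.80, -0.68 and -0.99, none called (adjusted p from 0.93 to 0.99).

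The effect of Cer was next set against that of the β-catenin morpholino, which had its own controls in batches 4 and 5. The 2 effects differed on 87 of 17810 rows (0.488%), 65 of them higher under Cer and 22 (0.124%) lower. Early β-catenin targets gave 14 of 17 tested rows higher under Cer and organizer genes 14 of 50, against 0.365% of all rows. The nodal3, sia1 and sia2 rows are on both lists, so the 2 counts share rows. On nodal3 row Xelaev18018867m, at 34.6 and 20.4 RPKM in controls 4 and 5 and at 0.235 and 0.231 RPKM in bCatMO, the effects differed by 5.43 (SE 0.38, adjusted p = 9.4e-05). On sia2 row Xelaev18019205m, at 19.7 and 17.1 RPKM in controls and 0.0316 and 0.0932 RPKM in bCatMO, the difference was 5.04 (adjusted p = 1.2e-06), and on chordin row Xelaev18027420m it was 5.29 (adjusted p = 0.00017).

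Of the 39 rows lower under Cer, 0 were called different between the 2 effects by limma, although 28 of them had an unadjusted p below 0.05, with a median difference of -1.15. lefty.S was at 9.48 and 7.76 RPKM in controls 4 and 5 and at 0.91 and 1.45 RPKM in bCatMO, a change of -2.45 (adjusted p = 0.014) beside -3.64 under Cer. The VENTX match Xelaev18036903m was at 139 and 85.3 RPKM in those controls and at 143 and 105 RPKM in bCatMO (0.17, adjusted p = 1, beside -1.66 under Cer, with adjusted p = 0.091 for the difference). bCatMO alone called 127 rows (0.713%), 34 higher and 93 (0.522%) lower, and 8 rows were called in both, 11% of the Cer calls and 6.3% of the bCatMO calls, 6 of them in the same direction. Of the rows higher under Cer, 13 of 34 were called higher than under bCatMO (0.365% of all rows), among them irx1.L, irx2.L and olig4.S. The 34 were called on the same Cer libraries, so part of that excess follows from the selection.

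**Figure D4:**
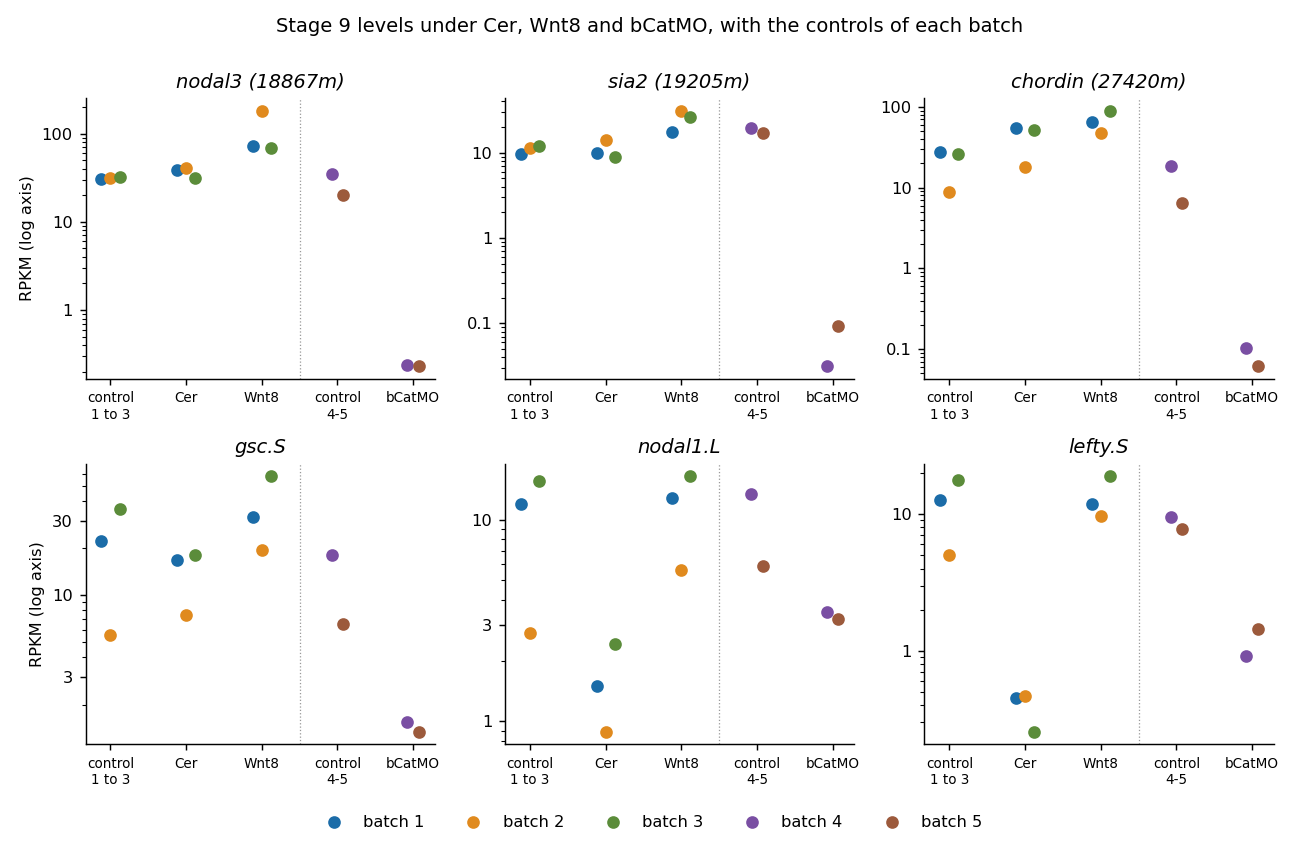
RPKM on a log axis at stage 9 for 6 rows, with 1 point a library coloured by batch: controls, Cer and Wnt8 of batches 1 to 3 on the left of the dotted line, controls 4 and 5 and bCatMO on the right. For nodal3, sia2 and chordin both bCatMO libraries lie at 0.235 RPKM or below, and the lowest Cer library stands at 31, 8.88 and 18.1 RPKM. For nodal1.L and lefty.S the Cer libraries lie below all controls.

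Whether the effect of Cer was the same at the early gastrula was tested by the difference between the log2 fold changes at stage 9 and stage 10.5. Each was fitted within its own table, since the tables were normalized separately. Batches are numbered within each stage, and the test did not pair them across stages. A difference between stages thus cannot be told apart from one between the 2 sets of batches. At stage 10.5 Cer against control called 829 of 17650 rows (4.7%). Of the 38 rows lower at stage 9 that were tested there, 37 were again lower (2.97% of the 17650 rows were). Their median was -1.94, beside -1.78 for the same rows at stage 9. Of the 34 higher rows 19 were again higher (1.73% of the 17650 rows), with a median of 0.74 beside 0.96. Over the 16848 rows tested at both stages, 382 were called lower and 235 higher at stage 10.5. The 2 effects differed on 200 of 16848 rows (1.19%), 159 with the stage 9 effect above the later one and 41 below it.

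Nodal targets that fell at stage 9 were also lower at stage 10.5. lefty.S was at 0.803, 0.432 and 2.55 RPKM in Cer and at 19.5, 24.1 and 24.9 RPKM in controls 4, 5 and 6 of stage 10.5 (-3.91, beside -3.64 at stage 9, adjusted p = 1 for the difference). mixer.S, at 140, 138 and 194 RPKM in controls, was at 13.6, 10.8 and 44 RPKM in Cer (-3.02 beside -2.72). sox17a.S had a larger fall at stage 10.5, with a change of -2.01 beside -0.68, a difference of 1.33 (adjusted p = 8e-05). It was the only row of the 38 whose effects were called different.

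Of 45 organizer rows that were not called at stage 9 and were tested at stage 10.5, 24 were called lower there, 6 higher and 15 not at all. Of the 16848 rows tested at both stages, 382 were called lower and 235 higher at stage 10.5. The chordin row Xelaev18027421m had log2 changes of 1.04, 1.30 and 1.01 in the 3 batches of stage 9 and an effect of -1.58 at stage 10.5 (adjusted p = 0.035), a difference between stages of 2.70 (SE 0.49, adjusted p = 0.0029, or 0.05, which no longer passes, with log2(RPKM + 0.1)). Its levels at stage 10.5 were 21.2, 8.67 and 14.7 RPKM in Cer and 36.5, 44.7 and 48.1 RPKM in controls. admp.S, a BMP-family ligand gene of the organizer, changed by 0.85 at stage 9 (adjusted p = 0.47) and by -1.86 at stage 10.5, a difference of 2.71 (adjusted p = 0.00011). gsc.L (-0.78 and -3.09, difference 2.31, adjusted p = 0.016) and gsc.S (-0.31 and -2.30, difference 1.99, adjusted p = 0.0013) differed in the same direction. On the organizer list 16 of 47 tested rows had a stage 9 effect above the later one, against 0.944% of all rows. The stage 9 effect lay below the later one in 1 row (0.243% of all rows), the HESX1 match Xelaev18001776m, which rose at stage 10.5 (2.08, adjusted p = 0.00045).

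brachyury, hhex and irx3 had large differences between the stages. t.L was at 38.4, 19.3 and 58.8 RPKM in controls and at 2.28, 0.597 and 7.77 RPKM in Cer at stage 10.5 (-3.61, beside -0.72 at stage 9, difference 2.89, adjusted p = 0.00012). It was scarce at stage 9, at 1.47, 0.044 and 1.34 RPKM in controls, where the added 0.5 RPKM limits how far a change can go and voom gave -1.78 (adjusted p = 0.25), and the difference was 2.95 with log2(RPKM + 0.1) (adjusted p = 0.027). hhex.S, a homeobox gene of anterior endoderm, was at 1.73, 0.716 and 1.3 RPKM in the stage 9 controls and had effects of -0.27 and -3.66 (difference 3.39, adjusted p = 2.2e-07). irx3.L, another iroquois gene, had effects of 0.11 and -3.46 (difference 3.58, adjusted p = 2.2e-07). irx2.L moved the other way, from 1.21 to 2.08 (difference -0.87, adjusted p = 0.023, or 0.12 with log2(RPKM + 0.1)), and so did 2 nodal5 rows, Xelaev18018805m from 1.20 to 2.63 (difference -1.43, adjusted p = 0.00091) and Xelaev18018806m from 0.97 to 1.93 (difference -0.96, adjusted p = 0.016, or 0.14 with log2(RPKM + 1)).

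lpar6.S and foxb1.L were called higher at stage 9 and were not called at stage 10.5. With 1 library left out, the stage 9 call held in 0 of 6 settings for lpar6.S and in 1 of 6 for foxb1.L. lpar6.S had effects of 1.07 and -0.18 (difference 1.26, adjusted p = 0.0051) and foxb1.L of 1.18 and 0.03 (difference 1.16, adjusted p = 0.019). The homeolog foxb1.S was again higher at stage 10.5 (1.18, adjusted p = 0.0044, beside 1.47, with adjusted p = 1 for the difference). A HES1 match, Xelaev18019219m, stood at 82.9, 87.7 and 77.4 RPKM in controls and 99.5, 101 and 90.4 RPKM in Cer at stage 9, and at 14.8, 7.64 and 12.1 RPKM against 122, 91.2 and 115 RPKM at stage 10.5, so the effect went from 0.23 to 3.23 (difference -3.00, adjusted p = 1.1e-05).

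**Figure D5:**
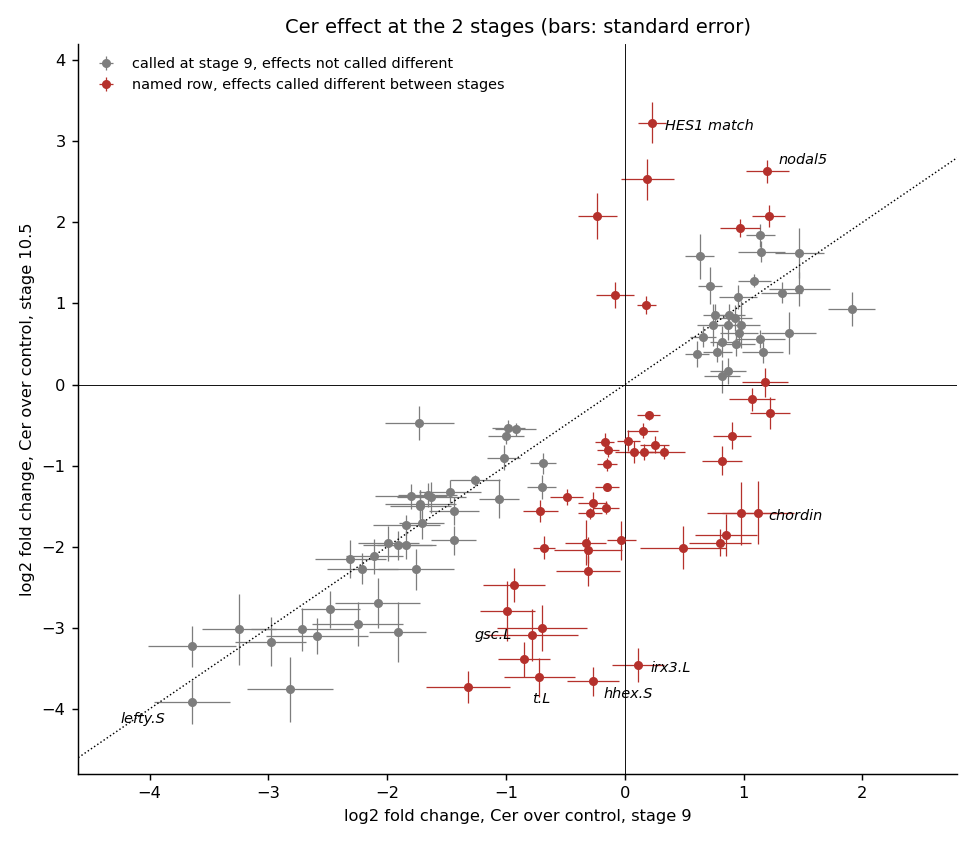
Log2 fold change of Cer over control at stage 9 (x axis) and at stage 10.5 (y axis), with standard errors, for rows called at stage 9 whose effects were not called different (grey) and for named rows whose effects were (red). The dotted line marks equal effects. lefty.S lies near it, chordin, hhex.S and irx3.L lie far below it, and the HES1 match lies above it.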

How the data were processed

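Per the labels' protocols, polyA RNA was made into TruSeq libraries and sequenced as 100-base single-end reads. TopHat2 2.09 and DESeq stand in the submitters' processing notes with no role given, while build, counting and strandedness were not given in the sources used here. Deposited values are RPKM per gene and library, computed by the authors, in a table of 37005 named rows at stage 9 and another of 43658 at stage 10.5 (10 rows with repeated identifiers, all 0, were dropped). The authors' averages, which fill 2 columns and belong to no single sample, were not used, nor was a shorter deposited table of a gene signature. Gene names are those of the files, and rows without one are given by identifier and best human match, or, for nodal3, nodal5, sia1 and sia2, by the description in the stage 10.5 table.

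Values were taken as log2(RPKM + 0.5). limma 3.58.1 in R 4.3.3 (lmFit, eBayes with trend) was fitted to all 17 stage 9 libraries with group and labelled batch, leaving 7 residual degrees of freedom; the Cer fold change then rests on batches 1 to 3 and the other libraries inform the spread. Stage 10.5 had its own fit (19 libraries, 8 degrees of freedom). Rows needed 1 RPKM in 2 of the 6 libraries, cer1.S was set aside, and p-values were two-sided and adjusted by Benjamini-Hochberg over all rows tested. Batches come from the labels, and the deviations of same-numbered Cer and control libraries correlated at 0.90, 0.87 and 0.92. Replicates differed by more than counting noise (chi-square per degree of freedom of 56.7 to 75.4 within the Cer libraries and within controls 1 to 3). Whole reads for voom were recovered for 30836 rows present in 5 or more libraries, all within 0.005 of a whole number. The steps were tested on simulated data with independent noise and the same change in each Cer library. That test does not cover effects that differ between batches.

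The comparison, the members and the 19 gene lists were chosen with earlier results of these data known. Named genes are the 12 largest called changes each way among rows with a gene name other than a clone identifier (same direction in 3 batches, 3 RPKM or more in the higher group), up to 4 called members of each list with the smallest adjusted p in each test, and a fixed panel (cer1, gsc, chrd, nodal, lefty, mixer, sox17, eomes, t, sia1, ventx, bambi, szl). Other genes are named as members of lists or were chosen after their values were seen. Alternatives changed the pseudocount, the filter, the scaling, the prior, the batch term, the libraries in the fit and the measure, and left out each library. The LiCl and Sia libraries entered no comparison here, only the fits, and the dissected dorsal and ventral embryo parts were not used here. Some genes that the rule names are not reported here.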

Additional observations from a re-analysis of the deposited data

Results flagged for a closer look

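The effect of Cer differed between stage 9 and stage 10.5 by the test of the difference itself for the rows below. Values are the stage 9 log2 fold change minus that of stage 10.5, so a positive value means that the effect was higher, or less negative, at stage 9. Among organizer rows the differences were 2.57, 2.70 and 2.50 for the CHRD matches Xelaev18027420m, Xelaev18027421m and Xelaev18029538m, 2.31 and 1.99 for gsc.L and gsc.S, 1.73 for foxa4.L, 2.54 for lhx1.S and 2.71 for admp.S. The HESX1 match Xelaev18001776m had -2.31.

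Among endoderm and mesoderm rows the differences were 2.41 and 3.39 for hhex.L and hhex.S, 0.85 and 1.33 for sox17a.L and sox17a.S, 1.89 for the GATA5 match Xelaev18046225m, 2.89 and 2.30 for t.L and t.S, 1.30 and 1.11 for the TBX6 matches Xelaev18010507m and Xelaev18007613m, 2.76 for pnhd.S and 1.77 for cdx1.S. Ventral rows gave 1.62 and 1.79 for msx1.L and msx1.S, 1.54 for the GATA2 match Xelaev18023995m, and 0.89, -3.00 and -2.34 for the HES1 matches Xelaev18019217m, Xelaev18019219m and Xelaev18000896m. The added 0.5 RPKM bears on rows that were scarce at stage 9. The GATA2 match Xelaev18023995m had means of 0.779 and 0.1 RPKM there, its stage 9 change was -0.93 in the fit and -2.75 by voom (adjusted p = 0.0079), and its stage difference was 1.07 with log2(RPKM + 0.1) (adjusted p = 0.83). hhex.L, at means of 2.07 and 0.352 RPKM, had stage 9 changes of -1.32 and, by voom, -2.45 (adjusted p = 0.0038), and its stage difference was 2.40 with log2(RPKM + 0.1) (adjusted p = 0.024).

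Neural and other rows that were higher at stage 9 gave 1.26 for lpar6.S, 1.16 for foxb1.L, 1.53 for LOC101733854.1, -0.87 for irx2.L, and -1.43 and -0.96 for the nodal5 rows Xelaev18018805m and Xelaev18018806m. Rows not called at stage 9 gave 3.58 for irx3.L, -0.79 for sox11.L and -1.19 for otx1.L. FGF feedback genes gave 1.18 for spry1.L, 1.16 and 1.00 for spry2.L and spry2.S and 0.99 for dusp6.S. The remaining rows were skil.L at 0.73, nfkbia.L at 0.72, plk3.L and plk3.S at 1.36 and 0.67, btg1.L at 0.58, and the WEE1 matches Xelaev18024552m and Xelaev18021796m at 0.83 and 0.54. Groups of 3 libraries are too small for the test of single outlying samples.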

How the results depend on the processing

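The count of 73 calls (34 higher, 39 lower) became 22 (13 and 9) with no filter on low values, 42 (11 higher) with a filter of 5 RPKM, 7 (1 and 6) with no replicate block, 11 (10 and 1) with the 6 libraries alone, 48 (22 higher) with the 9 libraries of batches 1 to 3, and 127 (62 and 65) with voom, and 17 were higher with log2(RPKM + 0.1). With 1 library left out, the count ranged from 9 to 90, from 2 to 36 for higher and from 6 to 54 for lower rows: 32 without Cer 1, 90 without Cer 2, 9 without Cer 3, 20 without control 1, 55 without control 2 and 9 without control 3. Leaving out a library removes the direct Cer and control pair of its batch. The Wnt8 library and the remaining library of that batch stay in the fit and still inform the fold change. A contrast of Cer with Wnt8 without the replicate block called 8 rows in place of 83. Other pseudocounts, size factors and a prior without trend kept the total counts within 1.5 times. None of the 73 changed sign under the alternatives that tested it. Rows near 0 did: with no replicate block nodal6.L was -0.05 and sia1 row Xelaev18019204m -0.17, sia1 row Xelaev18019203m was 0.00 with size factors and 0.02 with voom, and sia2 was 0.01 with voom. With 1 library left out, rows that crossed 0 ranged from -0.52 to 0.09 (wnt8a.L), -0.19 to 0.33, -0.22 to 0.10 and -0.64 to 0.11 (sia1 rows Xelaev18019204m, Xelaev18019203m and Xelaev18000882m), -0.18 to 0.15 (sia2 row Xelaev18019205m), and -0.06 to 0.43 and -0.05 to 0.37 (nodal3 rows Xelaev18018867m and Xelaev18018866m). The named differences that were run again kept their sign under other pseudocounts and size factors, but some lost their call: of 48 between stages 8 with log2(RPKM + 0.1), 2 with log2(RPKM + 1) and 1 with size factors, of 66 between Cer and Wnt8 6, 2 and 0, and of 33 between Cer and bCatMO 1, 2 and 0. Between stages these include 2 chordin rows, t.S, msx1.S, irx2.L and the GATA2 match. Low reads limit what can be seen among rows under 3 RPKM.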

Other observations

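A few called rows belong to no gene group described above. Xelaev18003951m and Xelaev18003950m, which have neither a gene name nor a human match in the authors' table, fell almost as far as lefty, from 23.8, 8.85 and 17.7 RPKM to 0.592, 1.78 and 1.43 RPKM (log2 change -3.25, adjusted p = 0.0024 by limma) and from 20.7, 7.09 and 17.6 RPKM to 0.742, 1.46 and 1.95 RPKM (-2.98, adjusted p = 0.0024). Both were also lower under bCatMO, at -2.38 (adjusted p = 0.012) and -2.34 (adjusted p = 0.01), and at stage 10.5 under Cer, at -3.02 and -3.17. fam212a.L fell, with a log2 change of -1.26 (adjusted p = 0.027), from 10.4, 4.94 and 12.2 RPKM to 3.25, 2.84 and 3.88 RPKM.

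Among scarce rows that rose were the germ-cell and pluripotency gene prdm14.S (0.63, adjusted p = 0.044), apln.L, which encodes the ligand of the apelin receptor (0.66, adjusted p = 0.028), and the adhesion gene alcam.S (0.72, adjusted p = 0.01). Each stayed under 3 RPKM in all 6 libraries. At stage 10.5, in the separate table, prdm14.S was at 34, 49.6 and 45.1 RPKM in Cer and at 10.5, 17.4 and 14.4 RPKM in controls, an effect of 1.58 (adjusted p = 0.0036).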
